A study of Mus musculus with 9 samples.

Results

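The nucleolar ribosome biogenesis genes described here are 44 mouse genes whose products make ribosomes in the nucleolus, together with a pair of polyamine synthesis enzymes. They were taken by gene symbol from a list that has no rule on measured values, though it was drawn up with earlier results of these data known, out of 20287 genes listed in at least 1 library. All 44 were found and all 44 passed the filter on low values, a mean of at least 0.5 FPKM (read fragments scaled by gene length and library size), among 13990 genes tested. RNA-seq was done on the mouse embryonic stem cell line E14 (strain 129) in its wild-type form (WT) and in Hbxip-/- cells (knockout, KO). Hbxip, now named Lamtor5, encodes a subunit of Ragulator, the lysosomal complex that takes part in activating the growth kinase mTORC1. Cells came from pluripotent culture, from day 4 of LIF withdrawal, which is 96 h (LIF is the cytokine that holds these cells undifferentiated), or from embryoid bodies, aggregates that begin to differentiate. Each of the 3 conditions had 1 WT library and 2 KO libraries, which gave 9 libraries in 6 groups.

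Ribosome production starts when RNA polymerase I transcribes the ribosomal RNA precursor, with UBTF on the gene and RRN3 joining the polymerase to its promoter. Small nucleolar ribonucleoproteins (snoRNPs) then guide chemical modification of the precursor, the small subunit processome cuts and folds the part that becomes the 40S subunit, and a further set of factors builds the 60S subunit. Pluripotent cells divide fast and make many ribosomes, and both mTORC1 and the MYC proteins are known to promote this process.

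Library totals were 10147277 to 10863845 rounded counts. Whether libraries of 1 genotype are separate clones or cultures is not in the labels. Except in the fit over all 3 conditions at once, a p-value therefore measures the spread between the KO libraries of a condition and no more. The lone WT library of a condition adds nothing to that spread and is assumed to vary like the KO pairs. Lamtor5 itself stood at 40.7, 38.5 and 41.8 FPKM in the WT libraries of the 3 conditions. In the KO libraries it read 31.0 and 29.1 FPKM in pluripotent culture, 16.2 and 15.5 without LIF, and 23.0 and 18.3 in embryoid bodies. Its log2 fold change was −0.31 in pluripotent culture, where the test described below did not call it. It was called lower without LIF (−1.22) and in embryoid bodies (−1.02). It is not stated where the deletion lies, so transcript left over does not test the genotype. All 10 pluripotency markers were at 1 FPKM or more in every library, with a summed level of 4039 to 5194 FPKM. Some were lower in both KO libraries of pluripotent culture: Nanog was at 390 FPKM in WT cells and at 233 and 265 FPKM in KO cells, and Lin28a at 90.7 against 42.9 and 47.2 FPKM. Sox2, Utf1, Tdgf1 and Zfp42 were also lower in both. Dppa4 was higher in both (79.7 against 92.9 and 92.7 FPKM), and Pou5f1, Sall4 and Dppa5a had KO libraries on either side of WT. Without LIF and in embryoid bodies, Nanog was lower and Zfp42 higher in each KO library than in the WT library. The summed level of 7 neuroectoderm markers in pluripotent culture was 130 FPKM for the WT library but 56.6 and 55.2 FPKM for the KO libraries, and 43.1 to 68.8 FPKM in the other 6 libraries. That of 7 trophoblast markers was 22.9 to 34.6 FPKM in the 3 WT libraries and 7.86 to 17.8 FPKM in the 6 KO libraries. Of 8 fibroblast and feeder markers, 1 to 3 reached 1 FPKM in a library, the sum was 6.7 to 37.0 FPKM, and Postn was at 0 in 8 of the 9. Of 8 primitive streak markers, the sum in pluripotent culture was 6.98 FPKM for the WT library but 4.15 and 4.94 FPKM for the KO libraries. It was 61.7 FPKM in WT cells without LIF and 105 FPKM in WT embryoid bodies, against no more than 16.3 FPKM in the KO libraries of those cultures. The 2 KO pluripotent libraries stood apart from the other 7 on the first principal component of log2 CPM, which held 51.5% of the variance, at 86.5 and 74.5 against −64.6 to 11.5. The part of these shifts in the results for the ribosome genes was not tested.

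These genes were abundant. A total of 43 of the 44 were at 10 FPKM or more in every library, and the lowest member, Polr1e, a subunit of RNA polymerase I, ranged from 7.56 to 11.8 FPKM. The highest was Npm1, a histone chaperone that also moves preribosomes, at 2131 FPKM in the WT pluripotent library. The smallest count of any member in any library was 280, so none was near the floor of detection. Levels varied little: the highest library of a gene stood 1.29 to 2.36 times above its lowest, with a median of 1.61, and only 3 members reached 2.

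Together the 44 genes took 1.42% of all counts in the WT pluripotent library (95% Wilson interval 1.42% to 1.43%), against 1.14% and 1.07% in the 2 KO libraries. The WT share after LIF withdrawal was 1.35%, against 1.31% and 1.26% in the KO libraries. In embryoid bodies WT cells gave 1.12% and the KO libraries gave 1.04% and 1.04%. The WT library was thus the highest in each condition and the genotype gap was widest in pluripotent cells. Ncl and Npm1 made up much of that gap: without them the shares in pluripotent cells were 0.903% in WT and 0.772% and 0.722% in KO libraries. Such intervals cover counting error only. With TMM library sizes the order turned in 1 case, since the KO library 1 without LIF then had 1.36% against 1.32% in its WT control. In bulk RNA, fewer cells with a transcript and less transcript per cell cannot be told apart.

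**Figure D1:**
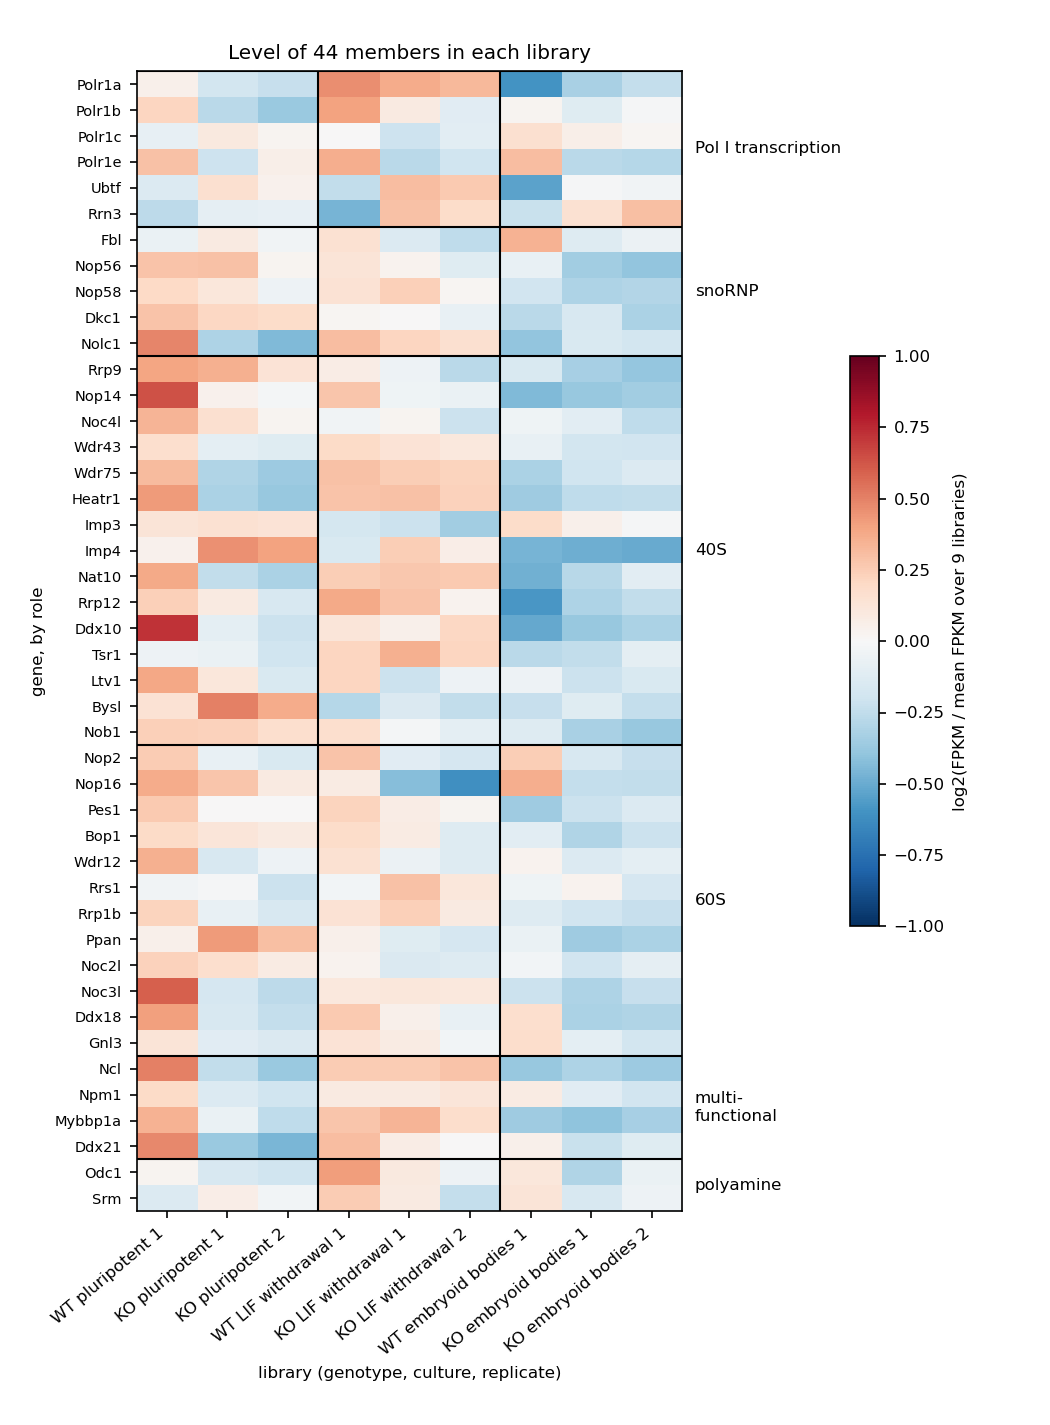
Level of each of the 44 genes (rows, by role) in each of the 9 libraries (columns), as the log2 ratio of its FPKM to its mean over the 9 libraries, with red above and blue below that mean. Most rows of the 40S block are blue in the 3 embryoid body libraries, and Nop2 is red in the 3 WT libraries and blue in the 6 KO libraries.

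The first comparison asked which of these genes depend on Hbxip in pluripotent culture. Here 15 of the 44 fell in KO cells and 6 rose, by edgeR's quasi-likelihood test. A gene was called where its p, adjusted over all genes by Benjamini and Hochberg's method, was below 0.05. Over all genes tested, 51.8% were called, 26.3% lower and 25.5% higher, so the members' total of 21 lies near the background. The median log2 fold change of the 44 was −0.13, against −0.01 over all genes. By FPKM, both KO libraries were below the WT library for 33 members, where 53.2% of all genes were, and above it for 9, where 36.9% were.

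The largest fall was in Ddx21, an RNA helicase that works in both polymerase I and polymerase II transcription. It was at 108 FPKM in WT cells and at 59.8 and 56.1 FPKM in KO cells, both of them well below WT, a log2 fold change of −0.77 ± 0.09 (SE; adjusted p = 2.2e-05, edgeR's quasi-likelihood test). Ddx10, a helicase of the small subunit processome, went from 39.0 FPKM in WT cells to 22.2 and 20.4 FPKM in KO cells, a log2 fold change of −0.75 ± 0.10. Nolc1, a chaperone that carries snoRNPs to the nucleolus, read 121 FPKM in WT cells against 69.6 and 63.4 FPKM in KO cells, a log2 fold change of −0.74 ± 0.09. By the fitted fold change, which uses TMM library sizes and not FPKM, each of the 3 genes stood in KO cells at 0.586 to 0.599 times the WT level.

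Noc3l, a 60S assembly factor, was at 28.2 FPKM in the WT library and at 16.6 and 15.5 FPKM in the KO libraries, a log2 fold change of −0.69 ± 0.09. Ncl, nucleolin, an abundant RNA-binding protein of the nucleolus, was at 268 FPKM against 160 and 146 FPKM, a log2 fold change of −0.68 ± 0.09. Heatr1, a large scaffold protein of the processome, was at 48.4 FPKM against 28.9 and 27.6 FPKM, a log2 fold change of −0.65 ± 0.08. For all 6 genes named so far the KO libraries lay close to each other and far from WT, and the adjusted p ran from 2.2e-05 to 8.05e-05 (edgeR's quasi-likelihood test). They were picked for the size of their called changes, so this separation is no further support.

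By role, 5 of 15 genes of 40S maturation fell (Ddx10, Heatr1, Nat10, Wdr75 and Nop14) and 2 rose (Imp4 and Bysl). Nat10, an RNA acetyltransferase, changed by −0.54 ± 0.10 on the log2 scale, and Wdr75 by −0.53 ± 0.09. Imp4, a partner of the U3 snoRNP, rose from 28.3 FPKM to 37.6 and 36.3 FPKM, a log2 fold change of 0.51 ± 0.11 (adjusted p = 0.00201, edgeR's quasi-likelihood test). Bysl, which joins late 40S precursors, rose by 0.42 ± 0.10 on the log2 scale.

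Of 12 genes of 60S assembly, 4 fell (Noc3l, Ddx18, Wdr12 and Nop2) and 1, Ppan, rose. Ddx18, a helicase, was at 122 FPKM in WT cells and at 82.3 and 78 FPKM in KO cells, a log2 fold change of −0.48 ± 0.09. Ppan moved the other way, from 75.4 FPKM to 97.9 and 89.6 FPKM, a log2 fold change of 0.44 ± 0.10. All 4 multifunctional nucleolar proteins fell: Ddx21, Ncl, Mybbp1a (−0.38 ± 0.11) and Npm1 (−0.23 ± 0.08). Of 5 snoRNP genes only Nolc1 fell, while Nop56, Nop58 and Dkc1, core proteins of the particles, were not called in any of the 3 genotype comparisons.

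Among 6 genes of polymerase I transcription, Ubtf, Rrn3 and Polr1c rose and Polr1b fell. The polyamine enzymes Odc1 and Srm were not called in pluripotent culture. Of the 21 calls, 14 held under each of the 14 alternatives run, and 7 did not: Mybbp1a, Nop2, Npm1, Polr1b, Polr1c, Rrn3 and Wdr12. None of the 14 left out the WT pluripotent library, the only 1 of its group, since this comparison needs it. Without KO library 2 of pluripotent culture the calls of Polr1b (−0.33), Nop2 (−0.18), Npm1 (−0.17) and Mybbp1a (−0.26) were lost, and without KO library 1 those of Polr1c (0.22) and Rrn3 (0.29). Those of Nop2 (−0.24) and Npm1 (−0.23) were also lost without either KO embryoid body library, and that of Npm1 (−0.22) without KO library 1 of LIF withdrawal.

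After LIF withdrawal 3 members rose in KO against WT cells and 7 fell, 10 of 44 in all, where 35.8% of all genes were called (18.4% higher and 17.5% lower), so the members' share was under the background. The median log2 fold change was −0.06, against 0.00 over all genes. Rrn3 was at 70.4 FPKM in WT cells and at 119 and 110 FPKM in KO cells, a log2 fold change of 0.76 ± 0.10 (adjusted p = 7.15e-05, edgeR's quasi-likelihood test). Ubtf was at 45.0 FPKM in WT cells and at 66.0 and 64.0 FPKM in KO cells, a log2 fold change of 0.60 ± 0.09. For both initiation factors of polymerase I the KO libraries were clear of WT.

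The falls after LIF withdrawal were led by a 60S assembly factor and a polymerase I subunit. Nop16, a 60S assembly factor, read 25.9 FPKM in WT cells and 18.1 and 16.0 FPKM in KO cells, a log2 fold change of −0.54 ± 0.13. Polr1e went from 11.8 FPKM to 7.62 and 8.02 FPKM, a log2 fold change of −0.53 ± 0.13. Nop2, a cytosine methyltransferase of 28S ribosomal RNA, was 72.3 FPKM in WT against 54.8 and 52.9 FPKM in KO cells, a log2 fold change of −0.36 ± 0.09. None of the 4 multifunctional proteins was called: Ncl was at 226 FPKM in WT cells and at 226 and 230 FPKM in KO cells.

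Imp4 rose by 0.37 ± 0.11 on the log2 scale, and Polr1b, Odc1, Fbl and Nop14 fell by 0.27 to 0.35 with an adjusted p between 0.0278 and 0.0404 (edgeR's quasi-likelihood test). Odc1 makes putrescine, the first polyamine. Its FPKM was 440 in WT cells and 352 and 317 in KO cells. Only Nop2, Rrn3 and Ubtf kept their calls under all 14 alternatives. DESeq2 called 4 members, where it called 20.3% of all genes, and did not call Nop16 or Polr1e. Leaving out KO library 2 of LIF withdrawal ended the calls of Polr1b (−0.23), Fbl (−0.21), Nop14 (−0.24) and Odc1 (−0.24), and leaving out KO library 1 ended that of Imp4 (0.26). Without either KO embryoid body library Fbl (−0.28) and Nop14 (−0.27) were no longer called.

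In embryoid bodies 4 members rose in KO against WT cells and 9 fell, 13 of 44, where 37.2% of all genes were called (19.4% higher and 17.8% lower), again a smaller share of the members than of all genes. The median log2 fold change was −0.11, against 0.00 over all genes. In 60S assembly 5 of 12 genes fell: Nop16, Ddx18, Nop2, Gnl3 and Ppan. Nop16 was at 31.3 FPKM in WT cells and at 20.7 and 20.6 FPKM in KO cells, a log2 fold change of −0.61 ± 0.13 (adjusted p = 0.00266, edgeR's quasi-likelihood test). Ddx18 was at 103 FPKM in WT cells against 73.6 and 74.6 FPKM, a log2 fold change of −0.48 ± 0.09. The KO pairs nearly coincided for both genes.

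Polr1e went from 11.4 FPKM to 7.62 and 7.56 FPKM in embryoid bodies, a log2 fold change of −0.59 ± 0.13. Fbl, fibrillarin, the methyltransferase of box C/D snoRNPs, was at 286 FPKM in WT cells and at 206 and 215 FPKM in KO cells, a log2 fold change of −0.45 ± 0.10. Ubtf rose from 36.7 FPKM to 52.9 and 52.0 FPKM, a log2 fold change of 0.52 ± 0.09. The polymerase I group therefore held calls in both directions, with Ubtf, Rrn3 and the large subunit gene Polr1a (0.31 ± 0.09) higher and Polr1e lower.

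Of the 15 members of 40S maturation none was called lower in KO embryoid bodies, where 17.8% of all genes were. Only Nat10 rose, by 0.29 ± 0.10 on the log2 scale, where 19.4% of all genes rose. This holds for the listed members only, since other genes of 40S maturation, such as Abt1 described below, fell there. A total of 7 calls held under all 14 alternatives: Ddx18, Fbl, Nop16, Nop2, Polr1e, Rrn3 and Ubtf. Without KO library 2 of embryoid bodies Polr1a (0.27), Nat10 (0.20), Ppan (−0.29), Gnl3 (−0.28) and Npm1 (−0.21) were no longer called. Without KO library 1 of embryoid bodies Ppan (−0.25), Npm1 (−0.28) and Odc1 (−0.19) lost their calls. That of Nat10 (0.28) also ended without KO library 1 of pluripotent culture or of LIF withdrawal, and that of Odc1 (−0.30) without KO library 2 of pluripotent culture.

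**Figure D2:**
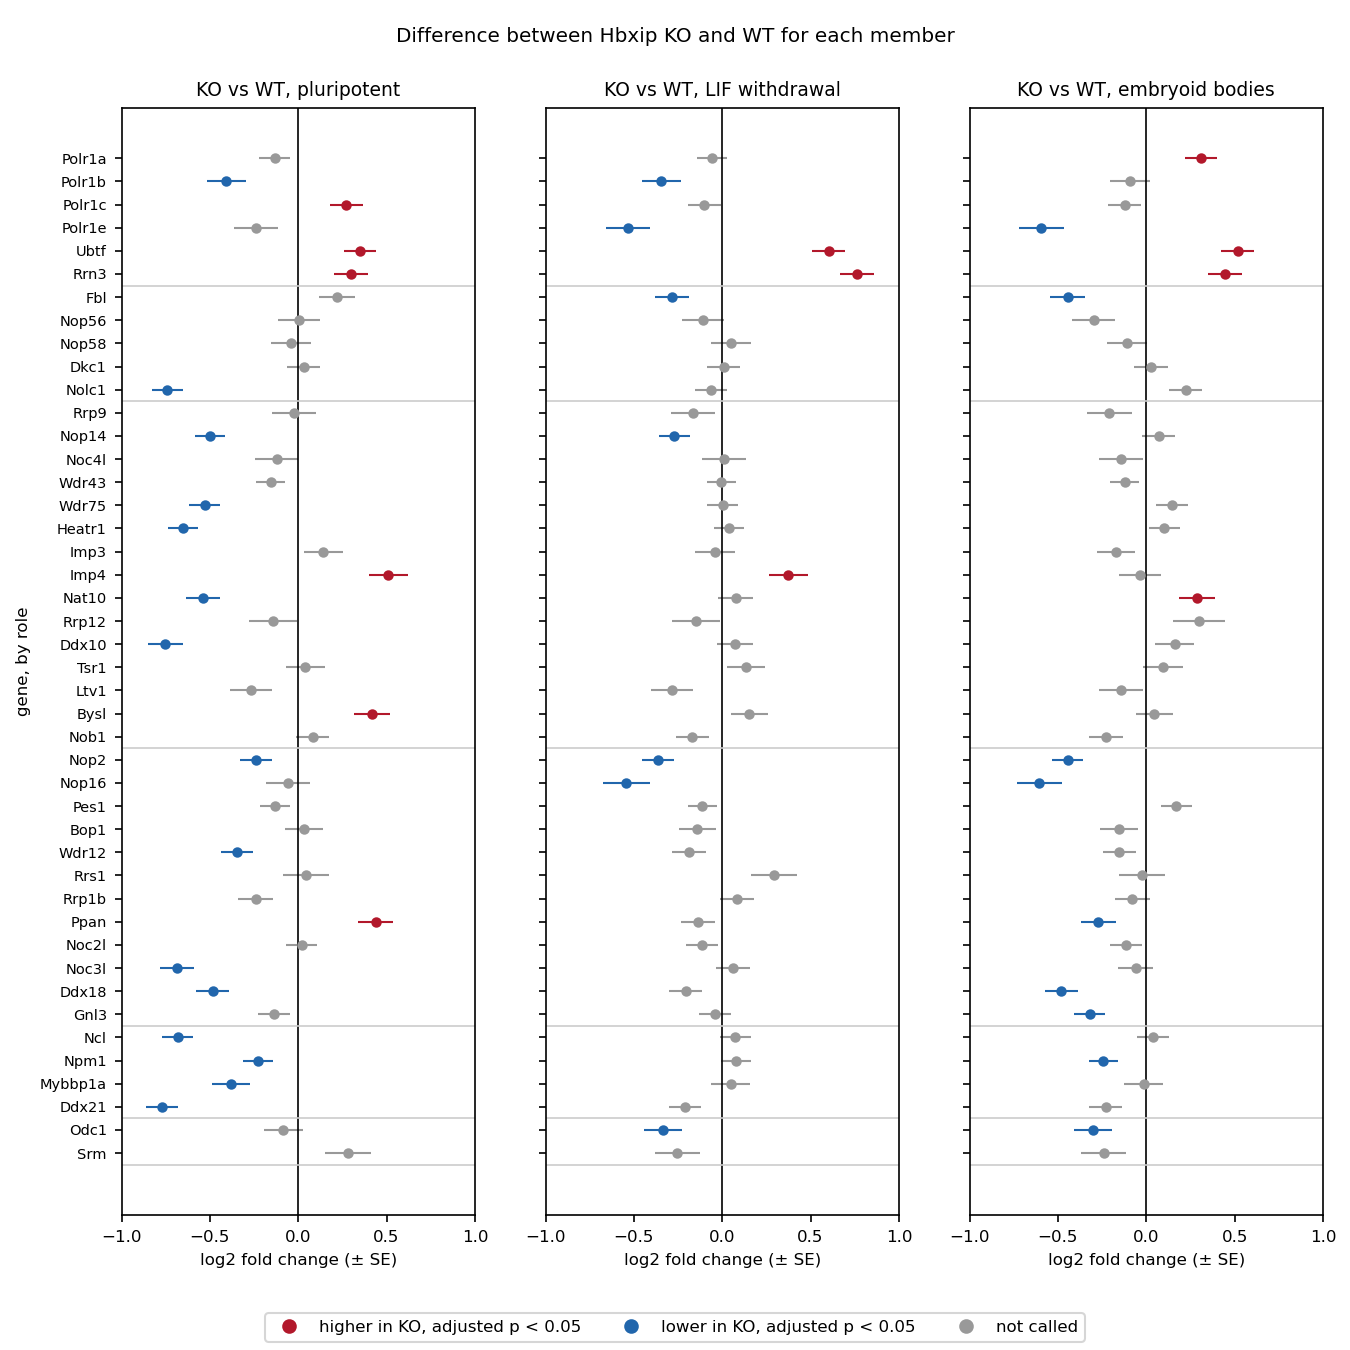
Log2 fold change of KO against WT (x axis, bars are 1 SE) for the 44 genes by role in each of the 3 conditions, coloured where the adjusted p of edgeR's quasi-likelihood test was below 0.05. Ubtf and Rrn3 lie right of 0 in each panel and Nop2 left of it, while the called falls of pluripotent culture such as Ncl and Heatr1 are near 0 in the other panels.

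Across the 3 conditions, 2 members were called higher in each, Ubtf and Rrn3 (4.55% of members, against 6.92% of all genes). Nop2 was the 1 member called lower in each (2.27%, against 5.65% of all genes). A total of 8 were called lower in 2 conditions (Polr1b, Polr1e, Fbl, Nop14, Nop16, Ddx18, Npm1 and Odc1), 18.2% of members against 10% of all genes. Imp4 was called higher in 2 (2.27% of members, against 10% of all genes). Both Nat10 and Ppan were called in opposite directions (4.55% of members, against 9% of all genes, so below the background). Nat10 fell in pluripotent culture and rose in embryoid bodies, and Ppan rose in pluripotent culture and fell in embryoid bodies. A total of 17 members were called in none (38.6%, against 29.4% of all genes): Nop56, Nop58, Dkc1, Rrp9, Noc4l, Wdr43, Imp3, Rrp12, Tsr1, Ltv1, Nob1, Pes1, Bop1, Rrs1, Rrp1b, Noc2l and Srm.

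Nop2 had nearly the same level in the 3 WT libraries, 70.7, 72.3 and 70.4 FPKM. In the 6 KO libraries it lay between 50.7 and 56.5 FPKM, below every WT library whatever the culture. Rrn3 ran from 70.4 to 83.2 FPKM in WT libraries and from 91.0 to 119 FPKM in KO libraries, with no overlap. Ubtf ran from 36.7 to 48.4 FPKM in WT libraries and from 52.0 to 66.0 FPKM in KO libraries, again with no overlap. These 3 genes were picked because they were called in every condition, a choice that favours separate levels. The lack of overlap is therefore no further support, and its share over all genes was not taken. For Rrn3, KO cells of pluripotent culture were lower than the other KO cells, and its log2 difference from WT was 0.30 ± 0.10 there against 0.76 ± 0.10 without LIF.

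A fit of genotype over the 3 conditions at once, with condition as a term, called 2 members higher and 5 lower, where 27.1% of all genes were called (13.3% higher and 13.8% lower). The rises were Rrn3, at 0.50 ± 0.10, and Ubtf, at 0.49 ± 0.08. The falls were Polr1e (−0.46 ± 0.10), Ddx21 (−0.41 ± 0.11), Nop16 (−0.41 ± 0.12), Ddx18 (−0.39 ± 0.08) and Nop2 (−0.35 ± 0.07). Their adjusted p ran from 0.00287 to 0.0395 (edgeR's quasi-likelihood test). The spread in this fit pools the variation of the genotype difference between conditions with that within KO pairs.

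Ddx18, Nop2, Rrn3 and Ubtf kept their calls under all 15 alternatives of that fit. Polr1e lost its call without the WT library of LIF withdrawal (−0.42). Ddx21 lost it without KO library 1 (−0.39) or 2 (−0.35) of pluripotent culture, KO library 2 of LIF withdrawal (−0.41) or KO library 1 of embryoid bodies (−0.41). Nop16 lost it without any 1 of 7 libraries, with log2 fold changes of −0.42 to −0.30: KO library 2 of pluripotent culture and all 3 libraries of LIF withdrawal and of embryoid bodies.

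**Figure D3:**
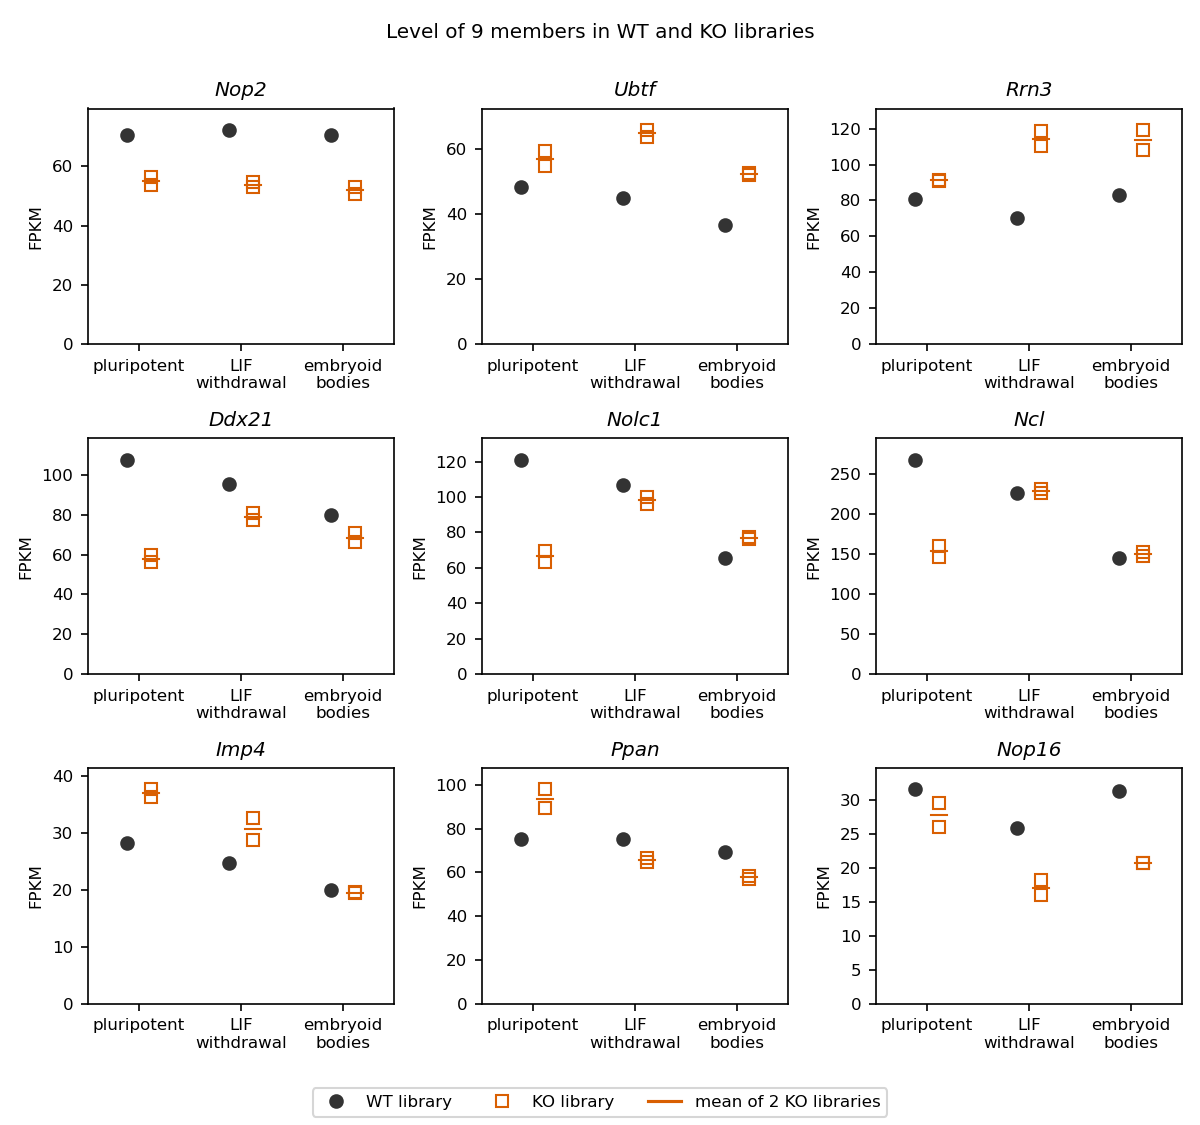
FPKM of 9 genes (y axes from 0, linear) in each condition, with the WT library as a filled circle, the 2 KO libraries as open squares and their mean as a line. In the top row, WT and KO levels are separate in all 3 conditions for Nop2, Ubtf and Rrn3, whereas Ncl differs in pluripotent culture (268 FPKM against 160 and 146 FPKM) and overlaps after LIF withdrawal.

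Rrn3, Nop2 and Imp4 carry CACGTG, the core letters of the E-box that MYC with MAX can bind, before their transcription start. Their surroundings are shown because the MYC family genes differed between genotypes in these libraries. Sequences are from RefSeq promoter windows of GRCm38.p6, each on the plus strand, with CACGTG in capitals and the rest in lower case. They lie at chr16:13780469-13780504 and chr16:13780636-13780671 (Rrn3), chr6:125131808-125131843 (Nop2) and chr1:34439693-34439728 (Imp4), with the motif starting 215, 48, 60 and 121 bases before the start.
Rrn3, first: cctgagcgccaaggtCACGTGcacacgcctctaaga
Rrn3, second: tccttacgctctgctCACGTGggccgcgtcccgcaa
Nop2: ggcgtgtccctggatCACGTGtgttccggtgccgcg
Imp4: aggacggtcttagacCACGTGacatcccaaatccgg

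A window covers 250 bases before to 50 after a start, and 38 of the 44 members have at least 1. CACGTG, which reads the same on both strands, was in 8 of the 38 (21.1%), against 11.8% of 10926 tested genes with a window, 8.09% of 27025 genes in all and 17.6% of 91 other ribosome biogenesis genes. The other 5 members with it were Wdr43, Tsr1, Ltv1, Pes1 and Mybbp1a. TCACGTGA, the longer form that contains it and that TFEB and related factors can bind, was in 0 of the 38, against 2.15% of tested genes. CACGCG, a variant, was searched on both strands and was in 13 of 38 (34.2%), against 19.7% of tested genes and 30.8% of the other ribosome biogenesis genes. The 13 were Polr1c, Polr1e, Ubtf, Nolc1, Ddx10, Bysl, Nop16, Pes1, Ppan, Noc2l, Mybbp1a, Ddx21 and Odc1. Of them, Pes1 and Noc2l were called in none of the genotype comparisons. Among the 8 genes with CACGTG were genes called higher (Rrn3, Imp4), lower (Nop2, Mybbp1a) and not called at all (Wdr43, Tsr1, Ltv1, Pes1) in the genotype comparisons. These are matches of letters, not measured binding.

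The MYC family genes themselves were not members. Mycn stood at 37.5, 88.8 and 76.8 FPKM in the WT libraries of pluripotent culture, LIF withdrawal and embryoid bodies. In KO cells it read 6.81 and 7.89, 5.53 and 6.58, and 16.4 and 14.2 FPKM, far below WT in each, with log2 fold changes of −2.23 ± 0.12, −3.81 ± 0.11 and −2.33 ± 0.10. Mycl also fell in each condition, by 1.69, 1.41 and 0.86 on the log2 scale. In pluripotent culture Myc read 31.7 FPKM in the WT library, against 33.3 and 35.3 FPKM with KO, and was not called. It rose after LIF withdrawal, from 25.7 to 63.2 and 52.0 FPKM (1.23 ± 0.13), and in embryoid bodies, from 22.2 to 32.8 and 30.2 FPKM (0.50 ± 0.13). Max, their partner, rose in embryoid bodies (0.34 ± 0.08) and was not called in the other conditions (−0.18 and 0.23). The part of these genes in the levels of the ribosome biogenesis genes was not tested.

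Fold changes in these libraries moved with gene length. Over all genes, the median log2 fold change of KO against WT pluripotent cells went from 0.27 in the shortest of 5 length classes to −0.26 in the longest, with a Spearman correlation of −0.23 over 13990 genes. Over the 44 members it was −0.50. In embryoid bodies it was 0.15 over all genes and 0.62 over the members, and after LIF withdrawal 0.10 and 0.30. Genes share their libraries and are not independent, so these correlations are descriptions. Genes that fell most in pluripotent culture are among the longer members, with 8257 bases for Ncl and 6776 for Heatr1.

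With the length trend removed from each library, the count in pluripotent culture was 5 higher and 15 lower (49.2% of all genes were then called), with 18 of 21 calls kept. Ddx21 then stood at −0.59 ± 0.09, Ddx10 at −0.68 ± 0.10 and Nolc1 at −0.64 ± 0.09, while Ncl and Heatr1 moved to −0.39 ± 0.09 each. Calls were lost for Polr1b, Polr1c and Mybbp1a and gained for Ltv1 and Gnl3. After LIF withdrawal 9 of 10 calls were kept, with Fbl lost and Ddx21 gained (36% of all genes called). In embryoid bodies 9 of 13 were kept, with Polr1a, Nat10, Ppan and Npm1 lost and Ddx21 gained (36.3% of all genes called). Nop2, Ubtf and Rrn3 kept their calls in all 3 conditions, and no call turned its direction.

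**Figure D4:**
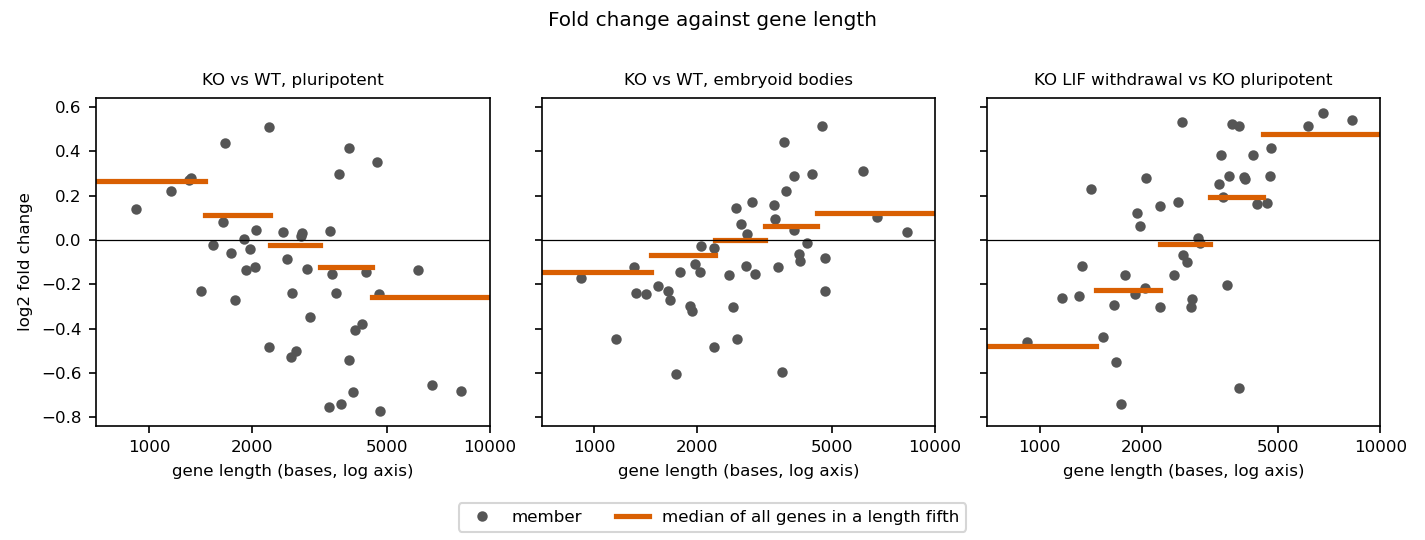
Log2 fold change (y axis) of the 44 genes against the gene length given in the files (x axis, log scale) in 3 comparisons, with orange bars for the median of all tested genes in each of 5 length classes. The bars fall from 0.27 to −0.26 in KO against WT pluripotent cells and rise from −0.48 to 0.48 in KO cells after LIF withdrawal.

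The second question was how these genes respond when cells leave pluripotent culture. LIF withdrawal changed few of them in WT cells: 2 rose and 4 fell, where 20.5% of all genes were called (11.6% higher and 8.9% lower), a share above that of the members. Ddx10 went from 39.0 to 25.8 FPKM, a log2 fold change of −0.57 ± 0.12 (adjusted p = 0.0043, edgeR's quasi-likelihood test), and Noc3l from 28.2 to 20 FPKM (−0.46 ± 0.11). Bysl (−0.41 ± 0.12) and Nop14 (−0.33 ± 0.10) also fell. Polr1a rose from 29.5 to 39.2 FPKM (0.44 ± 0.10) and Odc1 from 336 to 440 FPKM (0.42 ± 0.13). Each of these rests on 1 library against 1, and Ddx10 alone kept its call under all 13 alternatives. Nop14 (−0.33) lost its call without KO library 1 or 2 of embryoid bodies, which enter only the estimate of the spread, and DESeq2 called 3 members (9.32% of all genes).

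In KO cells the same step changed 29 of 44, 17 higher and 12 lower, where 59.2% of all genes were called (30.2% higher and 29% lower), so this count lies near the background. Heatr1 rose from 28.9 and 27.6 FPKM to 44 and 42.2 FPKM, a log2 fold change of 0.57 ± 0.07 (adjusted p = 2.41e-05, edgeR's quasi-likelihood test). Ncl rose from 160 and 146 FPKM to 226 and 230 FPKM (0.54 ± 0.07). All 4 multifunctional proteins rose, though Npm1 was no longer called without KO library 2 of pluripotent culture (0.17) or KO library 1 of LIF withdrawal (0.22). Wdr75 rose from 39.0 and 37.5 FPKM to 57.2 and 56.4 FPKM (0.53 ± 0.07).

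Falls in KO cells without LIF were led by Nop16, from 29.5 and 26.0 FPKM to 18.1 and 16.0 FPKM (−0.74 ± 0.11). Bysl went from 63.8 and 58.1 FPKM to 40.6 and 38.0 FPKM (−0.67 ± 0.08), and Ppan from 97.9 and 89.6 FPKM to 66.7 and 64.8 FPKM (−0.55 ± 0.08). The 6 genes named in this response were picked as its largest calls, a choice that favours separate groups, and their KO groups did not overlap. Among called members Nop56 was an exception: its 2 pairs of KO libraries overlapped in FPKM, and its log2 fold change moved from −0.24 to −0.10 without KO library 1 of pluripotent culture and to −0.15 without KO library 2 of LIF withdrawal. It was not called in either case, nor without KO library 1 or 2 of embryoid bodies.

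Gene length moved with this response. The Spearman correlation of the fold change with length was 0.43 over all genes, the largest of the 10 comparisons, and 0.67 over the 44 members. With the length trend removed, 15 members were called, 9 higher and 6 lower (49.9% of all genes), and 18 of the 29 calls were lost. Ncl then stood at −0.03 ± 0.07 and Heatr1 at 0.08 ± 0.07, while Nolc1 kept a rise of 0.36 ± 0.08. A total of 8 calls held under all 17 alternatives: Bysl, Nat10, Noc2l, Nolc1, Nop16, Ppan, Tsr1 and Wdr75.

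Embryoid bodies differed from pluripotent culture mainly by falls, in both genotypes. In WT cells 23 of 44 members fell and 1 rose, where 18.9% of all genes fell and 19.7% rose (38.6% in all), so falls were more frequent among the members than among all genes. The median log2 fold change was −0.35, against 0.01 over all genes. Each of these calls again rests on 1 library against 1, with the spread taken from the KO pairs. Of 15 genes of 40S maturation 11 fell and none rose. Ddx10 went from 39.0 to 16.6 FPKM (−1.22 ± 0.12, adjusted p = 1.26e-05, edgeR's quasi-likelihood test) and Nop14, a processome protein, from 64.2 to 30.5 FPKM (−1.05 ± 0.10). By the fitted fold change they stood at 0.43 and 0.482 times their level in pluripotent cells.

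Nolc1 fell from 121 to 65.6 FPKM (−0.86 ± 0.11), Ncl from 268 to 145 FPKM (−0.86 ± 0.10) and Nat10 from 33.7 to 18.5 FPKM (−0.84 ± 0.12). Rrp12, a repeat protein that helps export both subunits, fell from 18.6 to 10.6 FPKM (−0.80 ± 0.16). Fbl was the exception and rose from 215 to 286 FPKM (0.43 ± 0.11). A total of 17 of the 24 calls held under all 13 alternatives, those of the 7 genes named here among them. None of the 13 left out either WT library compared here. All 24 calls were kept with the length trend removed, when 39.3% of all genes were called.

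In KO cells 26 of 44 members fell in embryoid bodies and 1 rose, where 30% of all genes fell and 31% rose (61% in all), and falls again took a larger share of the members. The median log2 fold change was −0.23, against 0.01 over all genes. Imp4 fell most, from 37.6 and 36.3 FPKM to 19.6 and 19.4 FPKM (−1.03 ± 0.09, adjusted p = 1.68e-06, edgeR's quasi-likelihood test). Ppan went from 97.9 and 89.6 FPKM to 56.9 and 58.5 FPKM (−0.81 ± 0.08), and Bysl from 63.8 and 58.1 FPKM to 41.3 and 38.2 FPKM (−0.73 ± 0.08). These 3 were also the genes of 40S and 60S assembly called higher than WT in KO pluripotent cells. Both comparisons use the same KO pluripotent libraries, with opposite sign, so high values in those libraries favour both calls. The match is therefore not a separate observation.

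Rrp9, a U3 snoRNP protein, fell from 71.6 and 61.7 FPKM to 44.6 and 43.0 FPKM (−0.72 ± 0.10). Nob1, the nuclease that makes the end of 18S ribosomal RNA, fell from 72.0 and 69.0 FPKM to 49.0 and 47.1 FPKM (−0.66 ± 0.08). Nop56 fell from 210 and 176 FPKM to 136 and 131 FPKM (−0.65 ± 0.10). Only Rrn3 rose (0.21 ± 0.08), and it lost its call without KO library 1 (0.21) or 2 (0.19) of pluripotent culture, the WT library of embryoid bodies (0.19) or KO library 2 of embryoid bodies (0.13). Of the 27 calls 13 held under all 17 alternatives, the 6 falls named here among them. With 1 library left out in turn, the median log2 fold change of the members ran from −0.27 to −0.17.

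The responses themselves differed between genotypes for 13 members after LIF withdrawal, 9 with a higher and 4 with a lower response in KO than in WT cells, where 32.4% of all genes differed (17.5% higher and 14.9% lower). In embryoid bodies 16 differed, 10 higher and 6 lower, where 41.9% of all genes did (22.4% higher and 19.5% lower). Nolc1 fell in WT embryoid bodies and was at 0.10 in the KO response, a difference of 0.96 ± 0.13 on the log2 scale (adjusted p = 0.000162, edgeR's quasi-likelihood test). Ddx10 differed by 0.91 ± 0.15 in embryoid bodies and by 0.82 ± 0.14 after LIF withdrawal. Ppan had the lowest differences, −0.71 ± 0.14 and −0.57 ± 0.14.

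A total of 12 members differed in both responses, in the same direction each time: Ddx10, Ddx21, Fbl, Heatr1, Nat10, Ncl, Noc3l, Nolc1, Polr1c, Ppan, Srm and Wdr75. Both differences are taken against the same 3 pluripotent libraries, so these are not separate observations. Over all genes, 26.5% differed in both in 1 direction. With the length trend removed, 7 of the 13 differences after LIF withdrawal and 9 of the 16 in embryoid bodies kept their calls, where 27.6% and 35.6% of all genes were called.

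**Figure D5:**
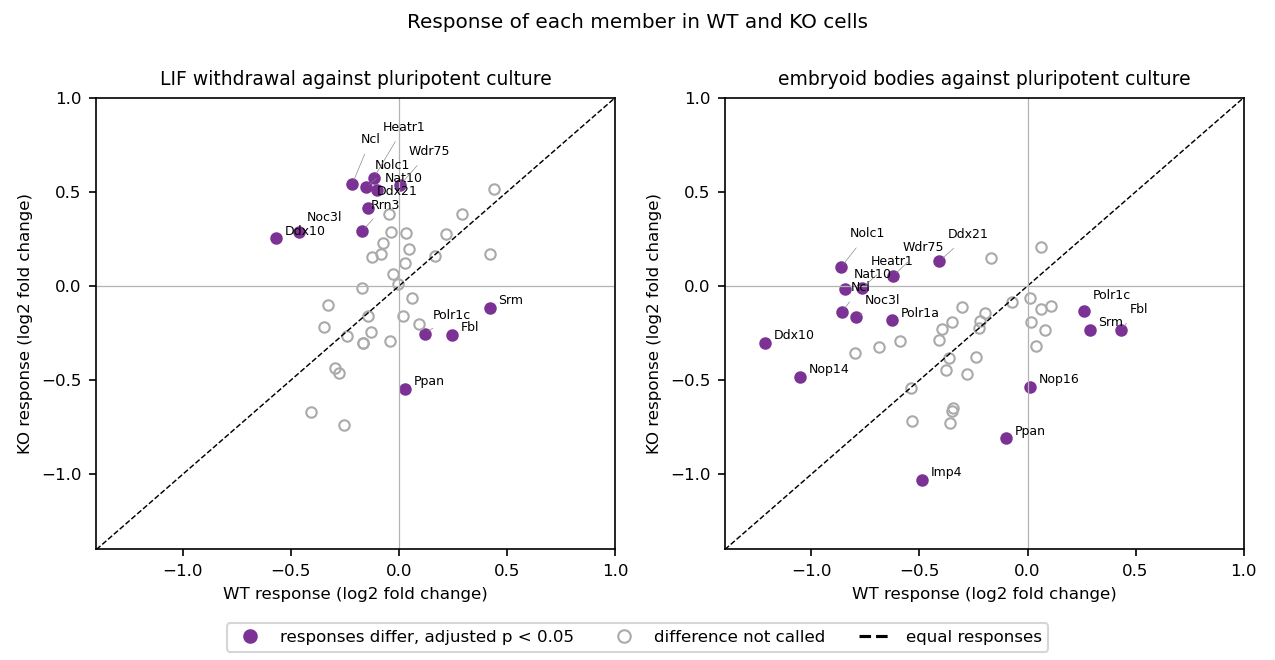
Log2 fold change of each of the 44 genes from pluripotent culture to LIF withdrawal (left) or to embryoid bodies (right) in WT cells (x axis) and KO cells (y axis), with filled points where the 2 responses differed at an adjusted p below 0.05 and a dashed line for equal responses. Filled points above the line such as Nolc1 and Ddx10 fell in WT embryoid bodies and less or not in KO cells, and Ppan lies below the line in both panels.

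To place the 44 genes in their pathway, 109 other ribosome biogenesis genes were followed, all of them tested: other polymerase I subunits and factors, snoRNP and U3 factors, 40S and 60S assembly factors, and the exosome, which trims ribosomal RNA. In pluripotent culture 18 rose and 31 fell in KO cells, with a median log2 fold change of −0.09, where 51.8% of all genes were called. The counts were 7 and 20 after LIF withdrawal (median −0.11; 35.8% of all genes), and 7 and 26 in embryoid bodies (median −0.12; 37.2% of all genes). In these 3 comparisons a smaller share of the 109 than of all genes was called. In WT embryoid bodies 8 rose and 44 fell against pluripotent culture (median −0.24; 38.6% of all genes called), and in KO embryoid bodies 5 rose and 71 fell (median −0.34; 61%). As for the 44 members, falls outnumbered rises in each of these comparisons, while over all genes the counts in the 2 directions were close.

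Abt1, a factor of early 40S assembly, was lower in KO cells in each condition, with log2 fold changes of −0.94 ± 0.10, −1.0 ± 0.10 and −1.34 ± 0.10 in pluripotent culture, LIF withdrawal and embryoid bodies. Exosc2, an exosome subunit, also fell in each, by 0.33, 0.99 and 1.49 on the log2 scale. The processome genes Wdr3 (−0.92 ± 0.09) and Bms1 (−0.87 ± 0.09) fell in pluripotent culture. Bms1 was at −0.11 and 0.02 in the other conditions and was not called there.

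Rises in KO pluripotent cells were led by Tsr3 (1.17 ± 0.14), a modifying enzyme of 18S ribosomal RNA, Nol12 (1.03 ± 0.12) and Taf1c (1.0 ± 0.15), a subunit of the polymerase I selectivity factor. Tsr2, a chaperone of a 40S protein, rose in each condition, by 0.65, 0.62 and 0.46 on the log2 scale. The desumoylating enzyme Senp3 fell in KO pluripotent cells (−0.21 ± 0.08) and rose after LIF withdrawal (0.50 ± 0.08) and in embryoid bodies (0.64 ± 0.08), where its partner Pelp1 also rose (0.54 ± 0.12). Rrp36 fell after LIF withdrawal (−0.66 ± 0.16), and Naf1, needed to assemble H/ACA particles, fell most in embryoid bodies (−0.81 ± 0.10).

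Some members have a feature of annotation that the list did not use. In RefSeq, 9 of the 44 hold an annotated small nucleolar RNA gene within their span (20.5%): Nop56, Nop58, Dkc1, Wdr43, Tsr1, Ppan, Gnl3, Ncl and Odc1. The share was 2.27% over 13960 tested genes with a RefSeq entry and 1.83% over the 109 other ribosome biogenesis genes. A total of 5 of these 9 were called in none of the 3 genotype comparisons (Nop56, Nop58, Dkc1, Wdr43 and Tsr1). The share called in none was 38.6% of all members and 29.4% of all genes. It was not taken over all genes that hold a small nucleolar RNA, so the 5 are listed only. Of the 44, 11 overlap another protein-coding gene, such as Polr1e with Fbxo10, Nat10 with Caprin1, Bysl with Ccnd3 and Mybbp1a with Spns2. This share of 25.0% lies near the 22.6% of tested genes and the 24.8% of the other ribosome biogenesis genes. The strandedness of the counting is not given in the sources used here, so reads of such pairs may be mixed. Npm1 has processed copies in the genome that can share its reads, and its level is uncertain for that reason.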

How the data were processed

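RNA was extracted with the RNeasy Mini Kit and sequenced from Illumina libraries, per the labels' protocols, and the submitters' processing notes name Bowtie2 and the mouse build mm8. The quantifier and strandedness are not given in the sources used here. Per the file headers, a deposited table covers 1 library and holds the authors' expected count (an estimated count) and FPKM for each gene. Within a tolerance of 0.005, 78.0% to 78.4% of a library's deposited expected counts were whole.

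Expected counts were rounded and unlisted genes set to 0. Of 20287 gene IDs, 20234 were matched by ID and 9 by accession in RefSeq's GRCm38 gene table, used for names only. Totals of 10147277 to 10863845 make 3 counts worth 0.276 to 0.296 CPM. Genes with a mean of at least 0.5 FPKM, 13990 in all, were tested with edgeR 4.0.16 (R 4.3.3), TMM factors of 0.94 to 1.04, and adjustment over all 13990. The 9 comparisons within or between groups came from 1 fit of 6 group means (3 residual degrees of freedom, biological coefficient of variation 6.52%), and the comparison over 3 conditions from an additive fit (5 degrees of freedom, 18.1%). Standard errors were computed as the absolute log2 fold change divided by the root of F. The KO pairs differed beyond counting noise (chi-square per degree of freedom 3.00 to 4.60), so none was taken for a copy. The fits were tested on simulated data.

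Named are all 44 members by role, with values for the 6 largest calls in each comparison, the highest and lowest member, those called in all 3 conditions or in opposite directions, the 3 largest changes each way among 109 other genes, and the MYC family. The members and lists were chosen with earlier results of these data known. Alternatives were DESeq2 1.42.0, RLE factors, limma 3.58.1 on log2(FPKM + 1) and log2(FPKM + 0.1), no filter, a replicate block and each library left out in turn. Chosen after seeing the data were a correction for gene length (a smooth curve on log2 length as an offset) and a fit of the KO libraries alone. In the fit of 6 group means, the lone WT library of a condition could not be left out of a comparison that uses it. Calls said to hold were therefore not checked against the loss of that library.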

Additional observations from a re-analysis of the deposited data

Results flagged for a closer look

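The results below are members whose response to a change of culture differed between KO and WT cells by the test of the difference itself (edgeR's quasi-likelihood test, adjusted p below 0.05). Each value is the KO response minus the WT response on the log2 scale. Equally it is the KO against WT difference in the later culture minus that in pluripotent culture.

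After LIF withdrawal 9 members had a higher response in KO cells: Ddx10 (0.82), Ncl (0.76), Noc3l (0.75), Heatr1 (0.69), Nolc1 (0.68), Nat10 (0.62), Ddx21 (0.56), Wdr75 (0.53) and Rrn3 (0.46). A total of 4 had a lower response: Ppan (−0.57), Srm (−0.54), Fbl (−0.50) and Polr1c (−0.37). For 8 of the 9 higher responses, all but that of Rrn3, the gene was lower in KO than in WT pluripotent cells. The value subtracts the pluripotent difference, so a low value there favours a higher response. This count is therefore no separate observation, and its share over all genes was not taken. Ncl, for example, was at −0.68 in pluripotent culture and at 0.07 without LIF. For Rrn3 the excess in KO cells grew from 0.30 to 0.76.

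In embryoid bodies 10 members had a higher response in KO cells: Nolc1 (0.96), Ddx10 (0.91), Nat10 (0.83), Heatr1 (0.76), Ncl (0.72), Wdr75 (0.67), Noc3l (0.63), Nop14 (0.57), Ddx21 (0.54) and Polr1a (0.44). A total of 6 had a lower response: Ppan (−0.71), Fbl (−0.67), Nop16 (−0.55), Imp4 (−0.54), Srm (−0.52) and Polr1c (−0.39). Fbl stood at 0.22 in KO against WT pluripotent cells, where it was not called, and at −0.45 in embryoid bodies, where it fell.

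All of these rest on the same KO pluripotent pair and WT pluripotent library. Gene length moved with them: the Spearman correlation with length over the 44 members was 0.61 after LIF withdrawal and 0.72 in embryoid bodies, against 0.30 and 0.30 over all genes. With the length trend removed, 8 members differed after LIF withdrawal and 11 in embryoid bodies.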

How the results depend on the processing

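Across all alternatives 263 of 286 counts and shares stayed within 1.5 times, or 1 interval, of the value reported, and 23 moved. DESeq2 called 4 members after LIF withdrawal in KO against WT cells and 3 in the WT response to LIF withdrawal (20.3% and 9.32% of all genes). Of the other ribosome biogenesis genes it called 32, 11 and 14 in KO against WT cells of pluripotent culture, LIF withdrawal and embryoid bodies (34.3%, 20.3% and 21.1% of all genes), 6 and 30 in the WT responses to LIF withdrawal and embryoid bodies (9.32% and 21.8%), and 14 for the difference between LIF responses (18.4%). With no filter, 6 members were called in KO against WT cells after LIF withdrawal (25.5% of all genes). Over the 3 conditions limma called 12 members with either pseudocount and 20 of the other genes with each (27.6% of all genes with 1 added and 27% with 0.1), and with log2(FPKM + 0.1) it called 17 members in KO embryoid bodies (57.8%). With the length trend removed, 15 members were called in the KO response to LIF withdrawal and 8 for the difference between LIF responses (49.9% and 27.6% of all genes), and 7 called values changed sign without being called: Polr1c (0.12), Fbl (0.15), Imp3 (0.026), Rrp1b (−0.027) and Ncl (−0.034) in KO cells without LIF, and Fbl (0.078) and Imp3 (0.13) in KO embryoid bodies. The cause was not tested.

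Leaving out 1 library in turn gave 8 to 13 members in KO against WT embryoid bodies and 14 to 29 in the KO response to embryoid bodies. For the other genes it gave 16 to 28 after LIF withdrawal (16 without KO library 2 there), 20 to 37 in embryoid bodies (20 without KO library 2) and 8 to 30 over the 3 conditions (30 without the WT pluripotent library). With TMM library sizes the members' share was 1.37% and 1.22% (WT and KO library 1) in pluripotent culture, 1.32% and 1.36% without LIF, and 1.09% (WT), 1.01% and 1.02% (KO) in embryoid bodies. Deviations of same-numbered KO libraries correlated at 0.18, 0.02 and 0.07, so the replicate numbers were not taken to pair them. With a replicate block on the KO libraries, 31 members were called in each KO response (62.7% of all genes without LIF and 64.5% in embryoid bodies) and all 56 calls were kept.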
